A study of Homo sapiens with 4 samples.

Results

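The GALNT enzymes start mucin-type O-glycosylation, and the transcripts of 10 of them were followed in TE5, an established cell line of human esophageal squamous cell carcinoma. The 10 genes (GALNT1, GALNT2, GALNT3, GALNT5, GALNT6, GALNT7, GALNT10, GALNT11, GALNT12 and GALNT14) were picked by gene symbol from a count table of 56612 gene IDs, of which 16817 had enough counts to be tested. The list was chosen on counts scaled to library size in these same 4 libraries, with earlier results known and no stated threshold, so each value below describes the 10 genes and is not independent evidence of a direction. All 10 had enough counts to be tested, and in every library each held at least 315 counts. Of the 10 other genes of the family in the table, the one nearest in level, GALNT18, lies inside the range of the 10 and is described after them, and the rest lie below 2 CPM (counts scaled to a common library size).

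In the shNUP153 group (n = 2 libraries), TE5 cells carried a short hairpin RNA against NUP153, a nucleoporin of the nuclear basket. In the shControl group (n = 2), they carried a control hairpin. Hairpins were delivered to both groups by lentivirus with puromycin selection, and the RNA is labelled day 7, 7 days of growth after selection. The genotype label is NUP153 knockdown for shNUP153 and WT for shControl. An effect of a hairpin on other transcripts cannot be told apart from that of lower NUP153. The shNUP153 descriptions carry marks that could name different hairpins, but their meaning is not stated. Whether the shNUP153 libraries share a hairpin, and whether replicates were separate infections, is therefore not known here. The p-values therefore reflect the spread among these libraries alone, which may be technical.

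Each library held between 22606593 and 27396268 counts. NUP153 averaged 74.9 ± 9.90 CPM in shNUP153 and 145 ± 5.17 CPM in shControl (SD, n = 2 each). Its difference was -0.96 on the log2 scale (SE 0.06, edgeR adjusted p = 1.051e-14). All 9 squamous epithelial markers had counts, with a summed 3075 to 3077 CPM in shNUP153 and 2853 to 2899 CPM in shControl, of which KRT17 rose and KRT5, KRT6A, CDH1 and DSP fell; KRT14 averaged 0.390 CPM in each group. Fibroblast markers summed to 0.540 to 1.10 CPM in shNUP153 and 0.451 to 0.675 CPM in shControl, with DCN and LUM at 0, and immune markers to 0.617 to 0.927 CPM in shNUP153 and 0.721 to 1.13 CPM in shControl. The 4 endothelial markers summed to 24.1 to 25.2 CPM in shNUP153 and 11.1 to 12.3 CPM in shControl, mostly from CDH5 (22.5 CPM in shNUP153 and 10.5 CPM in shControl), while PECAM1 had 3 and 1 counts in shNUP153 and 0 in shControl. Of these 4, CDH5 and VWF were called higher, VWF with 2.003 CPM in shNUP153 and 1.16 CPM in shControl (1.70-fold, edgeR adjusted p = 0.0431). The part of the CDH5 and VWF differences in the results below was not tested.

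GALNT enzymes sit in the Golgi apparatus and move N-acetylgalactosamine (GalNAc) from the sugar nucleotide UDP-GalNAc onto serine or threonine of a protein passing through. Other enzymes then extend this sugar into core structures, sialic acid often caps them, and mucins carry the densest arrays of such chains. The family members differ in the peptides they prefer. Some act on bare peptides, while others act best on peptides that already carry GalNAc, so that a protein can be modified by several members in turn.

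The DNA before the start of GALNT2 and GALNT10, the pair of members with the largest falls, is shown beside that of GALNT12, whose difference did not pass the test. Sequences are from RefSeq (build GRCh38.p14), all on the plus strand, run from 250 bases before the RefSeq start, and leave out bases inside exons of the same gene (29 for GALNT2, 3 for GALNT10). The GALNT2 stretch is chr1:230066988-230067208, inside the gene as GENCODE 29 draws it, since another transcript starts farther upstream. That of GALNT10 is chr5:154190483-154190729 and that of GALNT12 is chr9:98807420-98807669. Capitals mark GC boxes, the letters GGGCGG on either strand, which can overlap each other.
GALNT2: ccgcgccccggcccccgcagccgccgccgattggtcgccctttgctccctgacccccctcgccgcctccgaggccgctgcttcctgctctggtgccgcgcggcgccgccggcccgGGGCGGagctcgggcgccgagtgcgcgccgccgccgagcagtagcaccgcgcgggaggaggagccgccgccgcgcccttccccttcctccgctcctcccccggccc
GALNT10: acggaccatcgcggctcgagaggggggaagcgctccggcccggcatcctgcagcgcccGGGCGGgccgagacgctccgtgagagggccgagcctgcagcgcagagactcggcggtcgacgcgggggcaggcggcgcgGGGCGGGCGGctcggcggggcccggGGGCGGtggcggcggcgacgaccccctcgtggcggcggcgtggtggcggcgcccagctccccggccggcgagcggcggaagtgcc
GALNT12: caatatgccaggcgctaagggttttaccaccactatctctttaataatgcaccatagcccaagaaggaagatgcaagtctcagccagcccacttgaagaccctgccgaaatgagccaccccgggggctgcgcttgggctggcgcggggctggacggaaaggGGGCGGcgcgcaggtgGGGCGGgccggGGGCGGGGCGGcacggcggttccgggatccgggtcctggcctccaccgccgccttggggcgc

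GC boxes number 1 in the GALNT2 stretch, 4 in that of GALNT10 and 4 in that of GALNT12. RefSeq windows were found for 8 of the 10 members (GALNT5 and GALNT6 had none). In the full 250 bases, 6 of these 8 held GGGCGG, against 42.3% of 27305 gene starts. CCAAT was found in 3 of 8 (33.0% of all starts), and TATAAA (11.1%) and the AP-1 letters TGANTCA (6.60%) in 0 of 8, with both strands searched. The median GC content was 72% for the 8 members and 58% for all starts. The window of GALNT1, which also fell, is not shown and held 0 GC boxes. Its GC content was 47.2%, against 82.8% for GALNT2 and 82.4% for GALNT10. The windows of GALNT3, GALNT7, GALNT11 and GALNT14 are counted here but not shown, since they overlap exons of the same gene. A match or its absence describes only the letters of that window.

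With NUP153 reduced, 7 of the 10 GALNT transcripts fell, by 1.15-fold to 1.34-fold, and 0 rose. GALNT2, GALNT10 and GALNT1 fell most, GALNT6, GALNT14, GALNT7 and GALNT5 fell less, and GALNT3, GALNT11 and GALNT12 did not pass the test (edgeR's quasi-likelihood test fitted on all tested genes, adjusted p threshold 0.05). Across all 16817 genes tested, 32.4% passed in either direction, 17.4% lower and 15.0% higher in shNUP153. At an unadjusted p under 0.05 there was 1 member higher, GALNT3, and DESeq2 and limma called 0 members higher. The median log2 fold change was -0.24 over the 10 members and 0.01 over all genes tested. With total-count scaling in place of TMM, 6 members were lower and 1 (GALNT3) higher, and over all genes 3573 were higher and 2114 lower, where TMM gave 2521 higher and 2927 lower. Both shNUP153 libraries lay below both shControl libraries for 7 members (32.2% of all genes tested) and above them for 1 (32.2% of all genes tested). Falls were more common among abundant genes. With genes split by level into 10 bins of equal size, the top bin holds GALNT1, GALNT2, GALNT3 and GALNT5, and 42.4% of its genes were called lower, against 15.1% in the bin of GALNT6, the least abundant member. The median log2 fold change over all genes of a bin was -0.08 in the top bin and -0.04 in that of GALNT10. It was -0.03 in the bin of GALNT7, GALNT12 and GALNT14, -0.01 in that of GALNT11 and 0.02 in that of GALNT6. The part of abundance in the members' falls was not tested. In these bulk samples, less RNA per cell cannot be told apart from fewer cells that hold it.

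GALNT2 and GALNT1 are widely expressed enzymes that act on bare peptides. GALNT2 (ENSG00000143641, chromosome 1) measured 340 and 339 CPM in the shNUP153 libraries, against 437 and 470 CPM in the shControl libraries. The shNUP153 libraries were nearly equal and both lay well below the lower shControl library. The log2 fold change was -0.42 (SE 0.05, edgeR adjusted p = 3.67e-09), 1.34-fold lower.

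GALNT1 (ENSG00000141429, chromosome 18), whose loss in mice impairs secretion of basement membrane proteins, measured 238 and 242 CPM in shNUP153 and 316 and 304 CPM in shControl. The groups did not overlap, and the gap between them was several times the spread within either. Its log2 fold change was -0.37 (SE 0.05, edgeR adjusted p = 5.72e-08). Both genes passed the test under all 12 alternative settings, with log2 fold changes of -0.47 to -0.35 for GALNT2 and -0.40 to -0.31 for GALNT1.

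**Figure D1:**
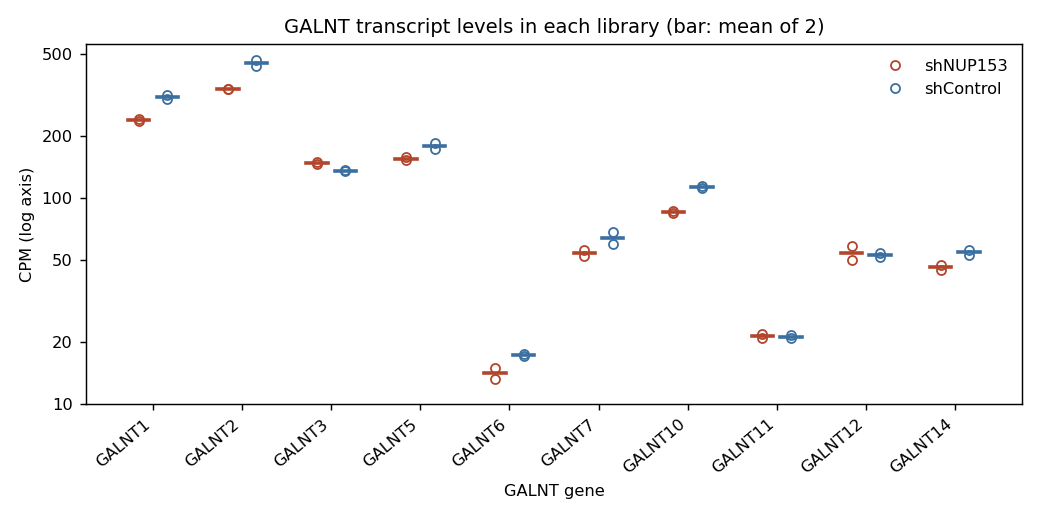
Level of each GALNT transcript in CPM (log axis) in every library, shNUP153 left of shControl for each gene; circles are libraries and bars the mean of 2. For GALNT1, GALNT2 and GALNT10 the shNUP153 circles sit clearly below the shControl circles, for GALNT3 slightly above, and for GALNT11 and GALNT12 the groups overlap.

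GALNT7 and GALNT10 are related enzymes that prefer peptides already carrying GalNAc. GALNT10 (ENSG00000164574, chromosome 5) measured 86.8 and 84.9 CPM in shNUP153, against 112 and 115 CPM in shControl. The libraries of each group differed by little, and the groups were far apart. It fell by 0.40 on the log2 scale (SE 0.05, edgeR adjusted p = 2.07e-07) and passed under all 12 alternatives (-0.42 to -0.34). GALNT7 (ENSG00000109586, chromosome 4) measured 55.9 and 52.6 CPM in shNUP153 and 68.4 and 59.6 CPM in shControl. Its shControl libraries differed from each other more than the groups did at their nearest points. It fell by 0.24 on the log2 scale (SE 0.07, edgeR adjusted p = 0.00545). The call for GALNT7 was lost without shNUP153 replicate 2 (edgeR adjusted p = 0.152) and without shControl replicate 1 (0.12), within a range of 8.88e-06 to 0.152 over the 12 alternatives. The log2 fold change of GALNT7 ranged from -0.34 to -0.14 over them, and was -0.14 without shControl replicate 1.

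GALNT3 and GALNT6 are close relatives within the family. GALNT3 (ENSG00000115339, chromosome 2), which protects the phosphate hormone FGF23 from cleavage, measured 150.0 and 147 CPM in shNUP153 and 136 and 137 CPM in shControl. It was the single member with both shNUP153 libraries above both shControl libraries. Its log2 fold change was 0.12 (SE 0.05, edgeR adjusted p = 0.0504), just outside the threshold, and its 95% interval of 0.02 to 0.23 lay wholly above those of all 7 members that fell. GALNT3 passed with DESeq2 size factors (0.0492), with total-count scaling (0.00275) and when genes under a mean of 5 CPM were left out (0.0128), within a range of 0.00275 to 0.341 over the 12 alternatives. Over them the log2 fold change of GALNT3 ranged from 0.11 to 0.19.

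GALNT6 (ENSG00000139629, chromosome 12), known for modifying fibronectin in breast cancer cells, was the least abundant member, at 15.0 and 13.3 CPM in shNUP153 and 17.4 and 17.1 CPM in shControl. Its groups did not overlap, and the spread between the shNUP153 libraries was close to the gap between groups. The log2 fold change was -0.29 (SE 0.10, edgeR adjusted p = 0.0231). The call was lost with total-count scaling (adjusted p = 0.0809), with DESeq2 (0.118) and without shNUP153 replicate 2 (0.265), within a range of 0.0178 to 0.265. Thus GALNT6 lay below shControl and GALNT3 above it, although a test of the difference between the pair was not made.

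GALNT5 (ENSG00000136542, chromosome 2) measured 153 and 158 CPM in shNUP153 and 185 and 173 CPM in shControl, a difference of -0.21 on the log2 scale (SE 0.05, edgeR adjusted p = 0.00141). The groups did not overlap. This was the smallest fall among the 7, and the call was lost without shNUP153 replicate 1 (adjusted p = 0.0788, range 5.42e-06 to 0.0788 over the alternatives). GALNT14 (ENSG00000158089, chromosome 2), a relative of GALNT2 known for modifying death receptors of the TRAIL pathway, measured 44.9 and 47.5 CPM in shNUP153 and 53.1 and 56.0 CPM in shControl. Its log2 fold change was -0.24 (SE 0.06, edgeR adjusted p = 0.00391), and the call was lost without shNUP153 replicate 1 (adjusted p = 0.127, range 0.000602 to 0.127).

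GALNT11 (ENSG00000178234, chromosome 7) measured 21.8 and 20.8 CPM in shNUP153 and 21.5 and 20.9 CPM in shControl, so that the groups spanned nearly the same range. Its log2 fold change of 0.01 had a 95% interval of -0.17 to 0.19 (edgeR adjusted p = 0.955). GALNT12 (ENSG00000119514, chromosome 9), an enzyme expressed in the colon, measured 49.9 and 58.5 CPM in shNUP153, on either side of the 54.4 and 52.0 CPM in shControl. Its log2 fold change was 0.03, with a 95% interval of -0.11 to 0.16 (edgeR adjusted p = 0.819). The lower ends of both intervals lie nearer to 0 than the -0.21 of GALNT5, the smallest fall called among the members. The 95% interval of GALNT5 itself, -0.308 to -0.105, overlaps that of GALNT11 and, narrowly, that of GALNT12. The sign of each estimate turned under some alternatives, to between -0.09 and 0.13 for GALNT12 and -0.03 and 0.07 for GALNT11.

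**Figure D2:**
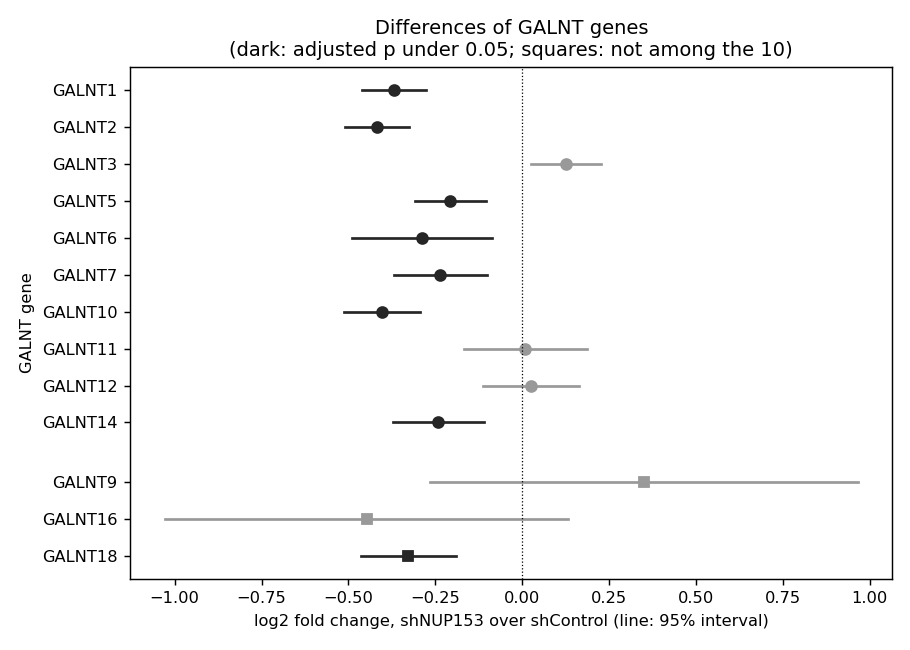
Log2 fold change of shNUP153 over shControl for the 10 GALNT genes (circles) and the 3 other tested family genes (squares), with 95% intervals as lines; dark marks passed the test. Among the circles, the intervals of GALNT1, GALNT2 and GALNT10 have the upper ends farthest below 0. That of GALNT3 lies just above 0, and those of GALNT11 and GALNT12 span it. Among the squares, the interval of GALNT18 lies below 0, and the wide ones of GALNT9 and GALNT16 span it.

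To compare levels between genes, CPM was divided by the length of each gene's exons in GENCODE 29, giving RPKM (CPM per kilobase of exon), with the caution that the authors' own annotation is not known. In shNUP153 the order was GALNT1 (46.8 RPKM), GALNT2 (43.9), GALNT3 (31.7), GALNT5 (22.8), GALNT12 (17.3), GALNT14 (10.1), GALNT10 (8.18), GALNT7 (7.90), GALNT11 (2.57) and GALNT6 (1.92). The order in shControl was the same, with GALNT1 at 60.4 RPKM, GALNT2 at 58.6, GALNT3 at 29.03, GALNT5 at 26.3, GALNT12 at 17.0, GALNT14 at 11.9, GALNT10 at 10.8, GALNT7 at 9.33, GALNT11 at 2.56 and GALNT6 at 2.35. Neighbours whose libraries overlapped were GALNT10 and GALNT7 in shNUP153, and GALNT1 and GALNT2 in shControl.

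The summed RPKM of the 10 genes was 191 and 195 in shNUP153 against 229 and 228 in shControl, 15.4% lower. As plain counts, the 10 genes took 0.119% and 0.118% of all counts in shNUP153, and 0.137% and 0.137% in shControl, which amounts to scaling by total count.

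Within this pool the make-up differed between groups. GALNT3 held 16.7% and 16.1% of the summed RPKM in shNUP153, against 12.6% and 12.8% in shControl. GALNT12 held 8.31% and 9.58% in shNUP153 against 7.58% and 7.28% in shControl, and GALNT11 held 1.37% and 1.29% in shNUP153 against 1.14% and 1.10% in shControl. The shares of these 3 genes were higher in both shNUP153 libraries than in either shControl library.

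GALNT1 held 24.2% in each shNUP153 library, against 26.9% and 26.0% in shControl. GALNT2 held 22.9% and 22.5% in shNUP153, against 24.7% and 26.6% in shControl. GALNT10 held 4.32% and 4.16% in shNUP153, against 4.67% and 4.80% in shControl. Together GALNT1 and GALNT2 made up 47.0% of the pool in shNUP153 and 52.1% in shControl. The shares of GALNT5, GALNT6, GALNT7 and GALNT14 overlapped between groups, so these genes fell about in step with the pool. Shares sum to a fixed total, so a fall of the abundant members raises the share of the others, and no test was made on them.

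**Figure D3:**
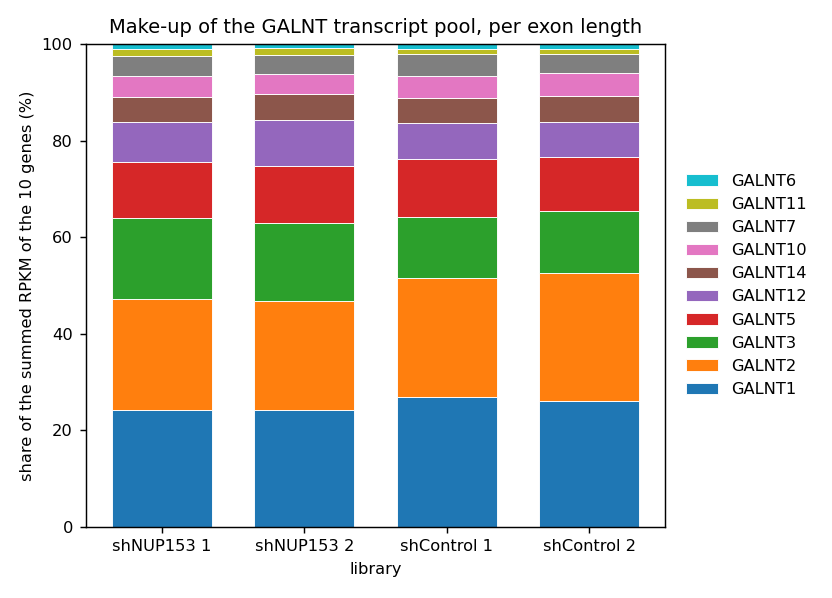
Share of the summed RPKM of the 10 GALNT genes held by each gene (%, stacked) in the shNUP153 and shControl libraries. The GALNT3 block is thicker in the shNUP153 libraries (16.7% and 16.1%) than in the shControl libraries (12.6% and 12.8%), and the GALNT1 and GALNT2 blocks are thinner.

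GALNT18 (ENSG00000110328, chromosome 11), a family member outside the 10, moved in the same direction as most of them. It measured 45.0 and 40.3 CPM in shNUP153 and 52.2 and 54.9 CPM in shControl, a difference of -0.33 on the log2 scale (SE 0.07, edgeR adjusted p = 0.00025). The groups did not overlap, and the call was lost without shNUP153 replicate 2 (adjusted p = 0.0532). GALNT9 (37 and 41 counts in shNUP153, 31 and 29 in shControl) and GALNT16 (34 and 30 counts in shNUP153, 38 and 48 in shControl) did not pass. The remaining 7 family genes were too low to test. GALNT13, GALNT15 and GALNT17 were at 0 in all libraries, and GALNTL5, GALNTL6, GALNT4 and GALNT8 had 0 to 8 counts in any library. GALNT4 shares 5033 of its 5399 exon bases with the readthrough gene POC1B-GALNT4, which was at 0, so its level depends on how shared reads were counted and is uncertain.

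Several members overlap a neighbouring gene, and the use of strand in counting is not known. GALNT2 shares 1029 exon bases with an antisense gene listed at 0 in all libraries. The antisense partner of GALNT12 had 11 and 7 counts in shNUP153 and 1 and 4 in shControl. SLC4A8, on the opposite strand of GALNT6, had 18 and 10 counts in shNUP153 and 15 and 14 in shControl. MFAP3, which shares 121 exon bases with GALNT10 on the same strand, had a log2 fold change of 0.16 (edgeR adjusted p = 0.11). The more abundant antisense partner of GALNT7 had 66 and 43 counts in shNUP153 and 59 and 52 in shControl. Antisense partners of GALNT11 and GALNT14 had 0 to 3 counts in any library. These partners were much lower than the member, apart from MFAP3, which moved the other way from GALNT10 without passing the test. How shared reads were assigned is not known, so a low partner count cannot show that the member's count was unaffected.

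Genes that act before and after the GALNT step were taken from lists drawn up by function. Across all 16817 genes tested, 15.0% rose and 17.4% fell, the shares to read beside the counts of each list. Over the 102 genes of these lists, GALNT18 and its relatives included, 79 were tested, of which 11 rose and 24 fell. The count was 22 genes without shNUP153 replicate 2, where it is 35 with all libraries. In the core extension list 1 of 6 tested genes fell and 0 rose (median log2 fold change -0.18). At an unadjusted p under 0.05 the list held 1 higher (GCNT3), and DESeq2 and limma called 0 higher. The gene that fell was C1GALT1C1, the chaperone COSMC that the core 1 enzyme needs to fold, at 33.5 ± 0.0264 CPM in shNUP153 and 46.3 ± 1.17 CPM in shControl (SD, n = 2 each), 1.38-fold lower (edgeR adjusted p = 2.04e-06). C1GALT1, the core 1 enzyme itself, measured 41.6 ± 0.283 CPM in shNUP153 and 40.1 ± 0.646 CPM in shControl (edgeR adjusted p = 0.615).

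Among genes that supply UDP-GalNAc and UDP-galactose, 1 of 11 rose and 4 fell (median -0.05). GFPT1, the entry enzyme of the hexosamine pathway, rose 1.43-fold, with 129 ± 1.33 CPM in shNUP153 and 89.9 ± 1.35 CPM in shControl (edgeR adjusted p = 7.42e-10). Of the 4 that fell, UGP2, which makes UDP-glucose, fell 1.30-fold and the GalNAc salvage kinase GALK2 1.31-fold. PGM3 and UAP1, both of the hexosamine pathway, fell 1.19-fold and 1.21-fold. GNPNAT1, the hexosamine enzyme after GFPT1, measured 141 ± 0.338 CPM in shNUP153 and 145 ± 11.4 CPM in shControl (edgeR adjusted p = 0.557). The call for PGM3 was lost without shNUP153 replicate 1 (edgeR adjusted p = 0.0703) and without shNUP153 replicate 2 (0.0631). In the sialylation list 1 of 10 rose and 1 fell (median 0.05). The sialyltransferase gene ST3GAL1 rose 1.15-fold (edgeR adjusted p = 0.033) and ST3GAL2 fell 1.17-fold (0.012), and each call held under 7 of 12 alternatives. Without shNUP153 replicate 1 the adjusted p was 0.2 for ST3GAL1 and 0.0829 for ST3GAL2, without shNUP153 replicate 2 it was 0.163 and 0.147, and without shControl replicate 2 it was 0.136 and 0.115.

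Of mucins and other carriers of GalNAc-linked chains, 6 of 18 tested genes rose and 5 fell (median 0.23), and 11 more were too low to test. SELPLG, the P-selectin ligand, rose 3.07-fold to 4.53 ± 0.0282 CPM in shNUP153 against 1.48 ± 0.0175 CPM in shControl (SD, n = 2 each). The membrane mucin gene MUC16 rose 2.62-fold, to 4.20 ± 0.492 CPM in shNUP153 against 1.61 ± 0.209 CPM in shControl (SD, n = 2 each). The complement regulator gene CD55 rose 1.35-fold. PDPN, the mucin-like protein podoplanin, fell 1.99-fold, with 28.0 ± 1.34 CPM in shNUP153 and 55.8 ± 1.97 CPM in shControl (edgeR adjusted p = 1.19e-13). MUC1 (1.41-fold), PODXL (1.60-fold), MUC5AC (1.39-fold) and CD24 (1.09-fold) fell as well. The calls for PODXL (adjusted p = 0.0534) and CD24 (0.0637) were lost without shNUP153 replicate 1, those for MUC5AC (0.143) and CD24 (0.229) without shNUP153 replicate 2, and that for MUC5AC (0.0913) without shControl replicate 2. MUC5AC was also lost with DESeq2 (adjusted p = 0.111), and CD24 with total-count scaling (0.27) and at a mean of 5 CPM or more (0.0513). Carriers that passed went both ways, and the GALNT genes that passed all fell. Many carriers, SELPLG and MUC16 among them, were less abundant than any of the GALNT members. Over all genes, the median log2 fold change was 0.17 in the lowest abundance bin and -0.08 in the top bin. The part of abundance in this contrast was not tested.

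**Figure D4:**
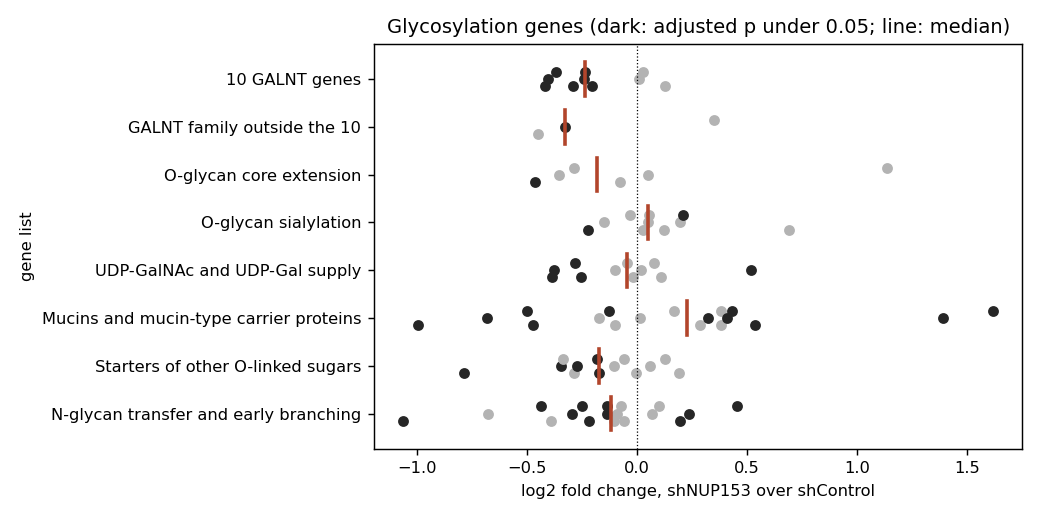
Log2 fold change of shNUP153 over shControl for each tested gene of the 10 GALNT genes and of the lists around them; dark points passed the test and the vertical line is the list's median. All dark points of the GALNT genes lie left of 0 (median -0.24), while those of the mucins and carriers lie on both sides (median 0.23). Many of the carriers were less abundant than any of the 10 GALNT genes.

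Enzymes that start other kinds of O-linked sugar fell in 5 of 13 cases and rose in 0 (median -0.17), with 0 higher at an unadjusted p under 0.05 and 0 by DESeq2 and limma. Those that fell were POGLUT3 (KDELC2 in the table, 1.72-fold) and POGLUT2 (KDELC1, 1.21-fold), which put glucose on EGF repeats, TMTC3 (1.27-fold), which puts mannose on cadherins, COLGALT1 (1.14-fold), which puts galactose on collagen, and POFUT1 (1.13-fold), which puts fucose on Notch. OGT, which puts GlcNAc on nuclear and cytosolic proteins, was at 0.06 on the log2 scale (edgeR adjusted p = 0.435). The calls for POFUT1 and POGLUT2 were lost without shNUP153 replicate 2 (adjusted p = 0.108 and 0.167), those for COLGALT1 and POFUT1 without shNUP153 replicate 1 (0.084 and 0.082), and that for POGLUT2 without shControl replicate 2 (0.0601). With total-count scaling POFUT1 (0.0976) and POGLUT2 (0.0546) were lost, and with DESeq2 POGLUT2 (0.0643). In the N-glycan list 7 of 18 fell and 3 rose (median -0.12). With total-count scaling 4 fell and 4 rose, and without shNUP153 replicate 1 or without shNUP153 replicate 2 there were 4 that fell, the calls lost being those of STT3A, RPN1 and MAN2A1 each time. FUT8, the core fucosyltransferase, fell 2.09-fold, and the oligosaccharyltransferase genes STT3B, RPN2 and DDOST fell 1.35-fold, 1.23-fold and 1.19-fold. The branching enzyme genes MGAT4B (1.37-fold) and MGAT5 (1.18-fold) rose, as did DAD1 (1.15-fold), a small oligosaccharyltransferase subunit. Without shNUP153 replicate 2 the calls for MGAT5 (edgeR adjusted p = 0.227) and DAD1 (0.0523) were lost, and without shNUP153 replicate 1 that for DAD1 (0.0823). Whether the GALNT genes differed from these lists was not tested.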

How the data were processed

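RNA-seq of 4 TE5 libraries was analysed. The authors deposited 1 table of 56657 gene rows whose values are whole-number counts with a different total in each library (22606593 to 27396268), although the table is named for FPKM, so they were treated as counts. Its deposited log2 ratio column was not used. The submitters' processing notes name kallisto, DESeq2, Bowtie2, deepTools and hg19, with no role, and neither the annotation nor the use of strand is stated there.

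Counts of 45 repeated rows were summed by ID to leave 56612 IDs, and 16817 genes passed filterByExpr (minimum count 10, minimum total 15). The test was edgeR's quasi-likelihood test (edgeR 4.0.16, R 4.3.3) with TMM scaling, no covariate, Benjamini-Hochberg adjustment over all genes tested and a threshold of 0.05. Standard errors were derived from the F statistic. CPM uses TMM library sizes, and RPKM uses exon lengths of GENCODE 29 (GRCh38). The code was tested on simulated data. Replicates differed beyond sampling noise (chi-square per gene 3.41 in shNUP153 and 3.90 in shControl over 13972 genes).

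The members and lists were chosen with earlier results of these data known. Named were all GALNT genes with a count, NUP153, and of each other list up to 4 called genes with the smallest p in each direction, or all where 5 or fewer were called. A carrier gene that the rule names is not reported here. OGT, C1GALT1, GCNT3, GNPNAT1, STT3A, RPN1, MAN2A1 and the markers that moved were named outside that rule, after their values were seen. Alternatives were DESeq2 size factors, total-count scaling, no filter on low counts, a mean of 5 CPM or more, the DESeq2 1.42.0 test, no variance trend, a replicate block, limma 3.58.1 on log2 CPM (prior count 0.5), and leaving out each library.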

Additional observations from a re-analysis of the deposited data

How the results depend on the processing

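Over the 12 alternatives 5 to 8 members were called, and GALNT1, GALNT2 and GALNT10 were called lower in each. Of single-member results, 7 lost and 3 gained a call, and no result with a call changed sign. The number of members higher, 0 as reported, was 1 (GALNT3) under DESeq2 size factors, total-count scaling, or a floor of 5 CPM on the mean. The number of genes changed, 5448 as reported, was 3556 with the DESeq2 test and 3072 to 5201 when 1 library was left out, lowest without shNUP153 replicate 1 (3072) and without shNUP153 replicate 2 (3342). Pathway genes changed numbered 22 to 35 when 1 library was left out, against 35 as reported. The cause was not tested. Leaving out a library leaves 1 library in a group, which is then assumed to vary like the other group.

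With the replicate block, 7 members, 35 pathway genes and 5465 genes in all were called. Same-numbered libraries did not deviate together (correlation -0.0032, 2 pairs). A value near 0 cannot show whether they shared a culture or batch, which is not stated. With 2 libraries a group, the calls of small differences such as those of GALNT6 and GALNT7 can be lost when 1 library is left out, although both were lower under all 12 alternatives, and intervals of GALNT11 and GALNT12 leave room for small changes.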
